A study of Homo sapiens with 192 samples.

Results

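The NDRG family (N-myc downstream-regulated genes) consists of NDRG1, NDRG2, NDRG3 and NDRG4, and their mRNA was measured in 4 human colorectal cancer (CRC) cell lines grown in 2D and in 3D. The 4 genes were taken by name from their Ensembl identifiers, and they are 4 of the 58243 identifiers counted. All 4 passed the filter on low counts, which kept 19387 genes for testing. NDRG1 was chosen by its measured values, for a large increase from 2D to 3D in these libraries, so its growth effect and its levels in 2D and 3D are described here with no test. NDRG2, NDRG3 and NDRG4 were included as the rest of its family and not for a rise of their own, although earlier results of these data were known.

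HT29, LS513, HCT116 and LS174T are established lines of human colorectal carcinoma cells. Each line was grown in 2D and in 3D and gave 3 poly(A)-selected, strand-specific libraries per growth condition, so that 8 groups and 24 libraries were available. The labels name no drug and no genetic change for any group. HCT116 was kept in McCoy medium and the other lines in DMEM, so that medium and line cannot be told apart. The 3 libraries of a group are numbered samples in the labels (1, 3 and 4 for HT29 in 3D), which do not say that they came from separate cultures, so that p-values measure the spread between these libraries alone. Of 8 epithelial markers (EPCAM, keratins, CDH1, CDX2, VIL1 and CDH17), 7 were above 3 counts in every library, with a summed level between 3221 and 17490 CPM. The summed level of 6 fibroblast markers was at most 22.1 CPM, of 3 endothelial markers at most 2.38 CPM and of 7 glial and neuronal markers at most 6.44 CPM, and COL1A2 and CD3E had 0 counts in every library. The leukocyte list of 4 genes reached 2674 CPM in HT29, where LYZ, the secreted enzyme lysozyme, made up most of it.

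NDRG proteins share an alpha/beta-hydrolase fold without known hydrolase activity. NDRG1 is known as a target of hypoxia-inducible factor (HIF) that MYC and MYCN repress, it is phosphorylated by SGK1 and GSK3, and in colonic epithelium it rises with differentiation. NDRG2 is a differentiation-associated gene often low in tumors, NDRG3 encodes a protein that prolyl hydroxylase EGLN1 marks for degradation in normal oxygen and that lactate stabilizes, and NDRG4, mostly a gene of brain and heart, carries a promoter that is often methylated in CRC. Only mRNA was measured here, so neither phosphorylation nor protein stability was observed. In bulk RNA, fewer cells expressing a gene and less RNA per cell cannot be told apart.

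Library totals ranged from 18723942 counts, for the third HT29 library grown in 2D, to 34277421. A signal was regarded as detectable above 3 counts per library, which corresponds to 0.0875 CPM in the deepest library and 0.160 CPM in the shallowest before scaling (CPM are counts divided by the library total and brought to a common size). CPM values are given after TMM scaling, as mean ± SD of 3 libraries. Fold changes are log2 of 3D over 2D with the standard error (SE) of the edgeR quasi-likelihood fit, and two-sided p-values were adjusted by Benjamini-Hochberg across every gene tested. A gene was called at an adjusted p under 0.05.

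NDRG1 (ENSG00000104419) lies on the reverse strand of chromosome 8, between bases 133237171 and 133302022 of GRCh38, and its annotated exons cover 9823 bases. In HT29, its level was 15.4, 13.3 and 15.3 CPM in the 2D libraries and 345, 183 and 357 CPM in the 3D libraries. In LS513, the 2D libraries gave 39.3, 41.7 and 41.6 CPM and the 3D libraries 500, 400.5 and 299.8 CPM. Every 3D library of these lines was therefore above every 2D library of the same line. In HCT116, NDRG1 was at 38.0, 40.5 and 53.4 CPM in 2D and at 999, 1085 and 619 CPM in 3D. In LS174T, it was at 37.6, 32.96 and 31.3 CPM in 2D and at 651.5, 564 and 695 CPM in 3D. The ranges did not overlap in these lines either, and the lowest of all the 3D libraries, in HT29, was above the highest of all 2D libraries, in HCT116.

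The mean of NDRG1 was 14.6 ± 1.20 CPM in 2D and 295 ± 97.0 CPM in 3D for HT29, and 40.9 ± 1.36 CPM against 400.2 ± 100.3 CPM for LS513. For HCT116 it was 43.9 ± 8.24 against 901 ± 248 CPM, and for LS174T 34.0 ± 3.27 against 637 ± 66.9 CPM. The fitted log2 fold change was 4.34 (SE 0.25) for HT29, 3.29 (SE 0.23) for LS513, 4.36 (SE 0.24) for HCT116 and 4.23 (SE 0.24) for LS174T. This is 20.2-fold, 9.79-fold, 20.5-fold and 18.8-fold, respectively, which places LS513 below the other lines. Among the genes with at least 1 CPM in one of the growth conditions, this change ranked 28 of 13884 for HT29, 42 of 13472 for LS513, 13 of 14218 for HCT116 and 15 of 14002 for LS174T, counted from the largest increase.

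**Figure D1:**
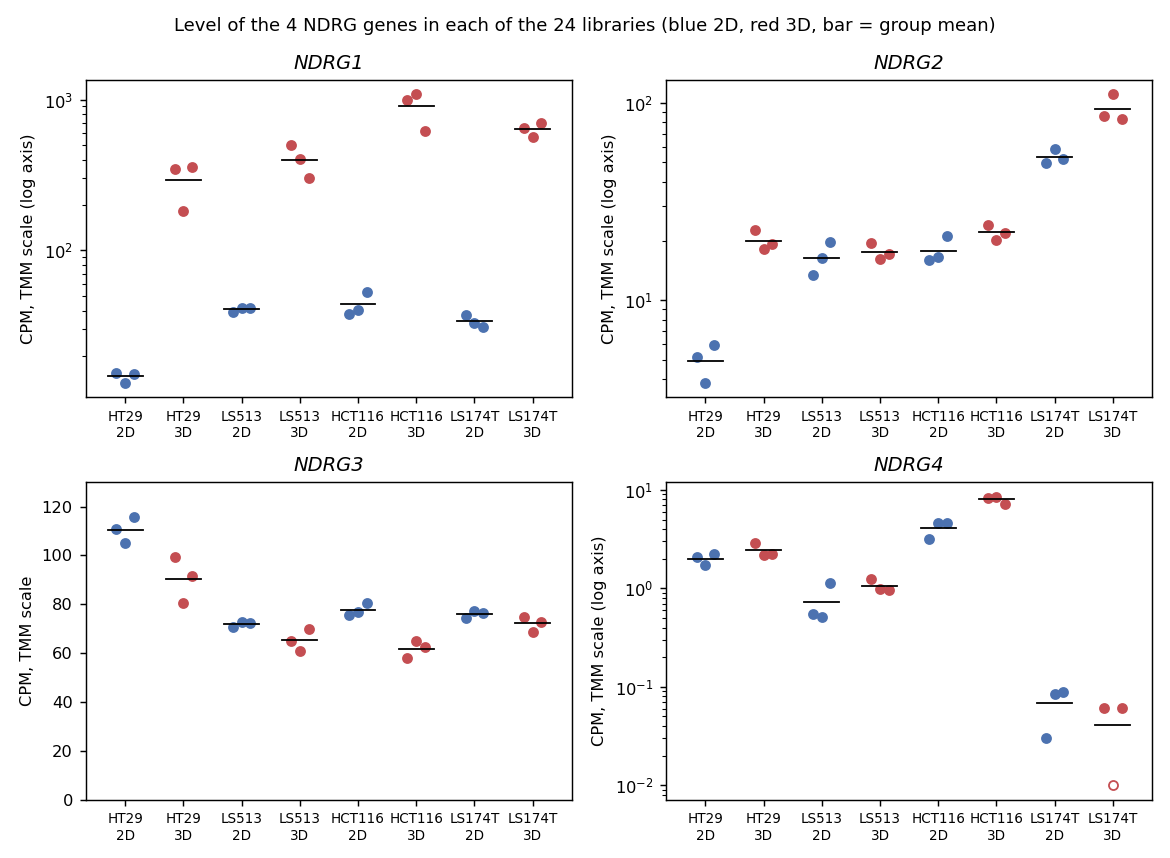
Level of NDRG1, NDRG2, NDRG3 and NDRG4 in CPM on the TMM scale in each of the 24 libraries, with 2D libraries in blue, 3D libraries in red and the group mean as a bar (log axes, except for NDRG3, which has a linear axis from 0). The open circle is the LS174T library with 0 counts of NDRG4, drawn at the bottom of the log axis. NDRG1 was 183 CPM or more in each 3D library and 53.4 CPM or less in each 2D library, whereas NDRG3 stayed between 57.9 and 115.6 CPM throughout.

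From lowest to highest mean, the order of NDRG1 over the 8 groups was HT29, LS174T, LS513 and HCT116 in 2D, then HT29, LS513, LS174T and HCT116 in 3D. Neighbors whose libraries overlapped were LS513 and HCT116 in 2D, HT29 and LS513 in 3D, and LS174T and HCT116 in 3D. In 2D, the fitted log2 difference of HT29 was -1.48 from LS513, -1.59 from HCT116 and -1.22 from LS174T (SE 0.23 each). It was -0.10 for LS513 minus HCT116, 0.27 for LS513 minus LS174T and 0.37 for HCT116 minus LS174T (SE 0.22 each). These differences carry no test either, because the 2D libraries are part of the contrast that chose NDRG1.

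In each 3D group, 1 library had the lowest NDRG1. In HT29 this was replicate 3, and of the 27 hypoxia response genes with at least 1 CPM there, 24 were also lowest in that library, against 43.5% of all genes at that level. In HCT116 it was replicate 3 as well, with 22 of 28 hypoxia genes lowest in the same library, against 38.4% of all genes. LS513 (replicate 3, 14 of 25 against 40.4%) and LS174T (replicate 2, 15 of 29 against 44.9%) gave lower shares. Thus in all 4 lines the 3D library lowest in NDRG1 was also lowest in most of the hypoxia genes counted, which rests on 1 library per line. Their share was furthest above that of all genes in HT29 and HCT116. In 2D, the same count was 6 of 25 in HT29 (against 34.3% of all genes) and 8 of 24 in LS513 (30.4%). It was 8 of 27 in HCT116 (25.9%) and 7 of 28 in LS174T (26.4%), so no 2D library lowest in NDRG1 was lowest in most of these genes. With each library of the lines left out in turn, the log2 fold change of NDRG1 lay between 3.09 and 4.63 over the 4 lines.

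NDRG2, whose product is linked to differentiation and to restraint of tumor growth, has the identifier ENSG00000165795 and lies on the reverse strand of chromosome 14, between bases 21016763 and 21070872. Its exons cover 7550 bases, of which 0.967% are shared on the same strand with MIR6717 (561 counts over all libraries). On the opposite strand, 3.13% are shared with TPPP2 (27 counts). The 2.29% shared with the lincRNA AL161668.4 (48 counts), also on the opposite strand, lie within the part shared with TPPP2. RefSeq (GRCh38.p14) gives 5 windows of 300 bases that reach from 250 bases before a start to 50 after it, and 3 of them hold a match to ACGTG or GCGTG, the core of the hypoxia response element. Of these, 2 are shown, and the third, chr14:21025012-21025311, overlaps the first and holds the same match. The other 2 windows hold none. The first window shown is chr14:21025056-21025355 and the second chr14:21070823-21071122, both on the reverse strand. Capitals mark the match on either strand.

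NDRG2, first window: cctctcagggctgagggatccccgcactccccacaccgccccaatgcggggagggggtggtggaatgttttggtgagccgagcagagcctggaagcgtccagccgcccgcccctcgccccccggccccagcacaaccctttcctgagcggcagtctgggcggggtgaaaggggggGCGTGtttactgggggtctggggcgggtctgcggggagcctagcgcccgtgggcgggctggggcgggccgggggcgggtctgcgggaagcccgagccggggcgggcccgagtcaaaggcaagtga
NDRG2, second window: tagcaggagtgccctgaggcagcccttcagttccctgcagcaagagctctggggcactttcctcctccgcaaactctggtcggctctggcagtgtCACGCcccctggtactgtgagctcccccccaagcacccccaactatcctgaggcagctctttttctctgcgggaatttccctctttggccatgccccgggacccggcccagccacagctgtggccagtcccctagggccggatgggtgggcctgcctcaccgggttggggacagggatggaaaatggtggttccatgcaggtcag

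Each of these windows holds 1 match and no CACGTG, the site of MYC and its partners, which contains ACGTG. Of all 35116 RefSeq windows of this length, 48.4% hold ACGTG or GCGTG and 7.26% hold CACGTG, so a single match is common. The windows contain 25 and 8 CG dinucleotides, beside a median of 14 over all windows.

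In HT29, NDRG2 was at 5.14, 3.82 and 5.92 CPM in 2D and at 22.7, 18.1 and 19.3 CPM in 3D, with no overlap. Its mean was 4.96 ± 1.06 CPM in 2D and rose in 3D to 20.1 ± 2.38 CPM, by 2.03 on the log2 scale (SE 0.17, adjusted p = 9.2e-09). In LS174T, the line with the most NDRG2, the 2D libraries held 49.6, 58.4 and 52.3 CPM and the 3D libraries 86.5, 111 and 82.8 CPM. There, too, every 3D library was above every 2D library, and the mean rose from 53.4 ± 4.55 to 93.4 ± 15.3 CPM (log2 fold change 0.81, SE 0.15, adjusted p = 6.6e-04). Of NDRG2, NDRG3 and NDRG4, HT29 thus had 2 called, NDRG2 higher and NDRG3 lower, where 40.7% of all tested genes were called. LS174T had 1 of the 2 members with a test called, against 22.2% of all genes.

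In LS513, NDRG2 was at 13.5, 16.3 and 19.7 CPM in 2D and at 19.5, 16.2 and 17.2 CPM in 3D. The ranges overlapped, and the log2 fold change of 0.10 (95% interval -0.23 to 0.42, adjusted p = 0.73) was not called. In HCT116, it was at 16.0, 16.6 and 21.1 CPM in 2D and at 24.2, 20.1 and 21.9 CPM in 3D, which overlapped as well. The mean was 17.9 ± 2.79 CPM in 2D and 22.1 ± 2.06 CPM in 3D, with a log2 fold change of 0.30 (95% interval -0.02 to 0.63, adjusted p = 0.15).

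The growth effect on NDRG2 differed between lines (adjusted p = 8.7e-06 for the interaction over the 4 lines, where 17.1% of all tested genes were called). In HT29 its log2 fold change was larger than in LS513 by 1.94 (SE 0.23, adjusted p = 3.8e-06), than in HCT116 by 1.73 (SE 0.23, adjusted p = 1.9e-05) and than in LS174T by 1.23 (SE 0.23, adjusted p = 0.0014). The share of genes called in these comparisons was 12.1%, 7.76% and 6.65%. The difference of LS513 from LS174T (-0.71, SE 0.22, adjusted p = 0.073) and those of HCT116 from LS513 and LS174T missed the threshold, where 3.62%, 4.34% and 4.75% of genes were called.

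In 2D, NDRG2 was lowest in HT29 and highest in LS174T, with LS513 and HCT116 between them. The log2 difference of HT29 was -1.75 from LS513, -1.87 from HCT116 and -3.44 from LS174T (adjusted p at most 4.5e-09), where 60.6%, 68.8% and 64.6% of all tested genes were called. That of LS513 and HCT116 from LS174T was -1.70 and -1.58 (adjusted p = 1.8e-09 and 4.1e-09), where 57.6% and 68.3% of genes were called. LS513 and HCT116 were not told apart by the test (log2 difference -0.12, adjusted p = 0.52, 68.3% of genes called). After growth in 3D, the mean of HT29 (20.1 CPM) lay between those of LS513 (17.6 CPM) and HCT116 (22.1 CPM), and its libraries overlapped with those of both.

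**Figure D2:**
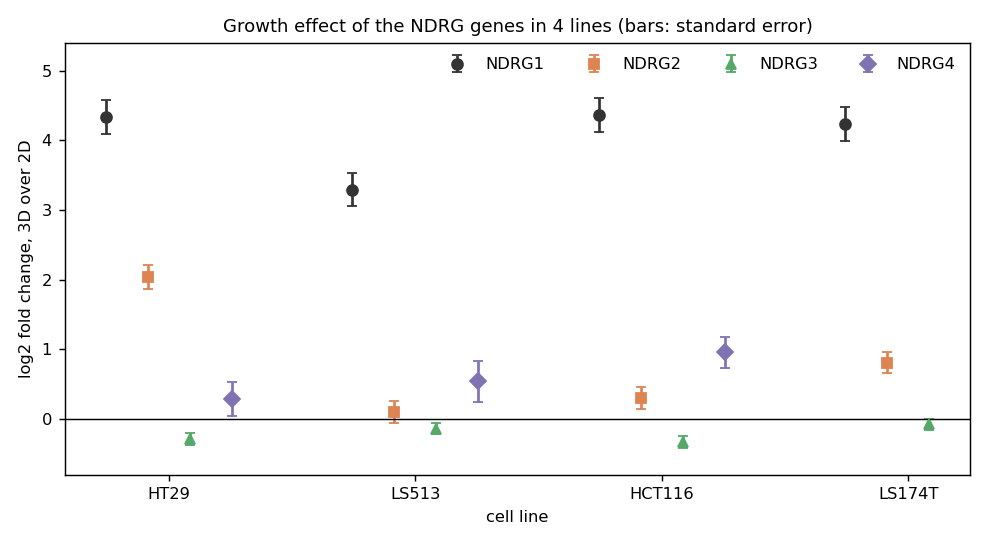
Log2 fold change of 3D over 2D (vertical axis) in each cell line (horizontal axis) for the 4 NDRG genes, with the standard error of the fit as bars and 3 libraries per growth condition. NDRG1 (circles) stood between 3.29 and 4.36 in each line, NDRG2 (squares) was highest in HT29 at 2.03, NDRG3 (triangles) lay between -0.33 and -0.08, and NDRG4 (diamonds) has no point in LS174T, where its counts were at or under the floor.

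NDRG3, the member whose protein is controlled by oxygen and lactate, has the identifier ENSG00000101079 and lies on the reverse strand of chromosome 20, between bases 36651766 and 36746078. Its exons cover 3248 bases, which no other annotated gene shares. In HT29, it was at 111, 105 and 116 CPM in 2D and at 99.4, 80.5 and 91.6 CPM in 3D. In HCT116, it was at 75.4, 76.7 and 80.6 CPM in 2D and at 57.9, 65.1 and 62.4 CPM in 3D. Hence all 3D libraries were below all 2D libraries in both lines, although the change was small. The log2 fold change was -0.29 in HT29 (SE 0.08, adjusted p = 0.0069) and -0.33 in HCT116 (SE 0.08, adjusted p = 0.0041).

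In LS513, NDRG3 was at 70.9, 72.7 and 72.2 CPM in 2D and at 64.8, 61.1 and 69.9 CPM in 3D, again without overlap. The log2 fold change was -0.14 (95% interval -0.31 to 0.03) and was not called (adjusted p = 0.23). In LS174T, the libraries overlapped, at 74.4, 77.3 and 76.5 CPM in 2D and at 74.6, 68.8 and 72.9 CPM in 3D. The log2 fold change there was -0.08 (95% interval -0.24 to 0.09, adjusted p = 0.53). No difference of the growth effect on NDRG3 between the lines was called (interaction, adjusted p = 0.30). The call in HT29 was lost without 2D replicate 1 (-0.23, adjusted p = 0.064), without 2D replicate 3 (-0.23, adjusted p = 0.071) and without 3D replicate 3 (-0.16, adjusted p = 0.14).

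Between lines in 2D, NDRG3 was higher in HT29 than in LS513, HCT116 and LS174T, with log2 differences of 0.62, 0.51 and 0.54 (SE 0.08 each, adjusted p = 5.0e-07, 6.6e-06 and 3.4e-06). No pair of the other 3 lines was called, with log2 differences from -0.11 to 0.03 (adjusted p = 0.24, 0.41 and 0.77). HT29 therefore had the lowest mean of NDRG1 and NDRG2 and the highest of NDRG3 among the 4 lines in 2D.

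NDRG4, best known from neurons and heart, has the identifier ENSG00000103034 and lies on the forward strand of chromosome 16, between bases 58462846 and 58513628, and its exons cover 9647 bases, which no other annotated gene shares. The start window chr16:58463465-58463764 (RefSeq, GRCh38.p14, forward strand) is shown because it holds the most matches to ACGTG or GCGTG among the windows of NDRG2 and NDRG4 and is dense in CG. Capitals mark the matches on either strand.

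NDRG4, CG-dense window: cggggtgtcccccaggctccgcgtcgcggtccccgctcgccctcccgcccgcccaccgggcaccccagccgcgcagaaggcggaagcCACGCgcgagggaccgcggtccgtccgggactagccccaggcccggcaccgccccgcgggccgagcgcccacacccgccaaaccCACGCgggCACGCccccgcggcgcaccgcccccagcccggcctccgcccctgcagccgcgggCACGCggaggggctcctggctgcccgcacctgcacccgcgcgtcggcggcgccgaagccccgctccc

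This window holds 4 matches and 49 CG dinucleotides, and 98.4% of all windows have fewer CG. It holds no CACGTG, and the other 3 windows of NDRG4 hold no match to either sequence. Methylation was not measured here.

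NDRG4 had the lowest level of the family per kb of exons in each line. In HCT116, the line with the most NDRG4, the libraries held 104, 159 and 145 counts in 2D (3.14, 4.57 and 4.65 CPM) and 251, 262 and 213 counts in 3D (8.35, 8.56 and 7.12 CPM). The groups did not overlap, with means of 4.12 ± 0.850 CPM in 2D and 8.01 ± 0.777 CPM in 3D, a rise of 0.96 on the log2 scale (SE 0.22, adjusted p = 0.0024). NDRG4 and NDRG3 were both called in HCT116, in opposite directions, and NDRG2 was not, where 29.1% of all tested genes were called.

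In HT29, NDRG4 had 60, 50 and 41 counts in 2D and 95, 63 and 62 counts in 3D, with overlapping CPM values and a log2 fold change of 0.29 (95% interval -0.23 to 0.80, adjusted p = 0.38). In LS513, it had 17, 17 and 36 counts in 2D and 35, 28 and 28 counts in 3D. The third 2D library was above 2 of the 3 in 3D on the CPM scale, and the log2 fold change of 0.54 (95% interval -0.07 to 1.15, adjusted p = 0.20) was not called. Without that library it was 1.00 (adjusted p = 0.021). With TMM scaling and all libraries, no member with a test was called in LS513, where 23.6% of all tested genes were called. None had an unadjusted p under 0.05 in that edgeR fit, and none was called by DESeq2. With library totals in place of TMM, NDRG3 was called there.

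In LS174T, NDRG4 had 1, 3 and 3 counts in 2D and 2, 0 and 2 counts in 3D, so that all 6 libraries were at or under the floor and no fold change is given. Pooled over 3 libraries and their TMM-scaled totals, the 7 counts in 2D correspond to 0.0684 CPM (95% exact Poisson interval 0.0275 to 0.141) and the 4 counts in 3D to 0.0432 CPM (0.0118 to 0.111). In 2D, NDRG4 was 28.9-fold higher in HT29 than in LS174T (95% interval 13.7 to 73.0), 10.7-fold higher in LS513 (4.92 to 27.6) and 60.2-fold higher in HCT116 (28.97 to 151). The same ratios in 3D were 56.8 (21.9 to 210), 24.7 (9.31 to 92.5) and 186 (72.1 to 683). They rest on the 4 counts in LS174T, and in each line the 3D interval overlaps the 2D interval. The intervals of these levels and ratios cover counting error only, and the lines were not tested against LS174T. In 2D, LS513 had less than HT29 (log2 difference of HT29 minus LS513 1.44, SE 0.28, adjusted p = 9.2e-05) and HCT116 had more than HT29 (HT29 minus HCT116 -1.05, SE 0.24, adjusted p = 5.2e-04) and LS513 (LS513 minus HCT116 -2.49, SE 0.26, adjusted p = 1.2e-08). The interaction over lines was not called for NDRG4 (adjusted p = 0.30).

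To compare the members with one another, CPM was divided by the exonic length in kb. In 2D, NDRG3 was the leading member in each line, with 34.0 ± 1.64 CPM per kb for HT29, 22.1 ± 0.284 for LS513, 23.9 ± 0.835 for HCT116 and 23.4 ± 0.468 for LS174T. NDRG1 followed in HT29 (1.49 ± 0.122), LS513 (4.16 ± 0.139) and HCT116 (4.47 ± 0.839), whereas in LS174T NDRG2 (7.08 ± 0.603) was above NDRG1 (3.46 ± 0.333). Expressed as a share of the summed level of the family, NDRG3 made up 93.5%, 77.6%, 76.8% and 69.0% in 2D in HT29, LS513, HCT116 and LS174T. In 3D, its share was 46.7%, 32.4%, 17.3% and 22.4%.

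NDRG1 took 4.09%, 14.6%, 14.3% and 10.2% of the family level in 2D and 48.4%, 63.8%, 79.4% and 65.1% in 3D, in the same order of lines. In 3D, it was therefore the leading member in LS513, HCT116 and LS174T, and in HT29 it was close to NDRG3 (30.04 ± 9.87 against 27.9 ± 2.93 CPM per kb). With the length of the longest coding transcript (3755 bases for NDRG1 and 2978 for NDRG3) in place of all exons, the share of NDRG1 was 8.996%, 26.6%, 25.8% and 17.03% in 2D and 66.3%, 78.4%, 88.1% and 74.8% in 3D. That of NDRG3 was then 85.8%, 59.0%, 57.96% and 48.1% in 2D and 26.9%, 16.8%, 8.04% and 10.7% in 3D. NDRG3 thus led in 2D in each line with either length, whereas the distance of NDRG1 to NDRG3 in 3D depends on the length used. Per kb of exons, NDRG1 was above 43.3% to 60.3% of tested genes in 2D and above 90.4% to 97.4% in 3D, and NDRG4 was above 33.3% of them or less in every group. NDRG2 made up 20.8% of the family level in LS174T in 2D and at most 7.62% in the other lines, or 34.9% and at most 13.9% with the longest coding transcript.

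**Figure D3:**
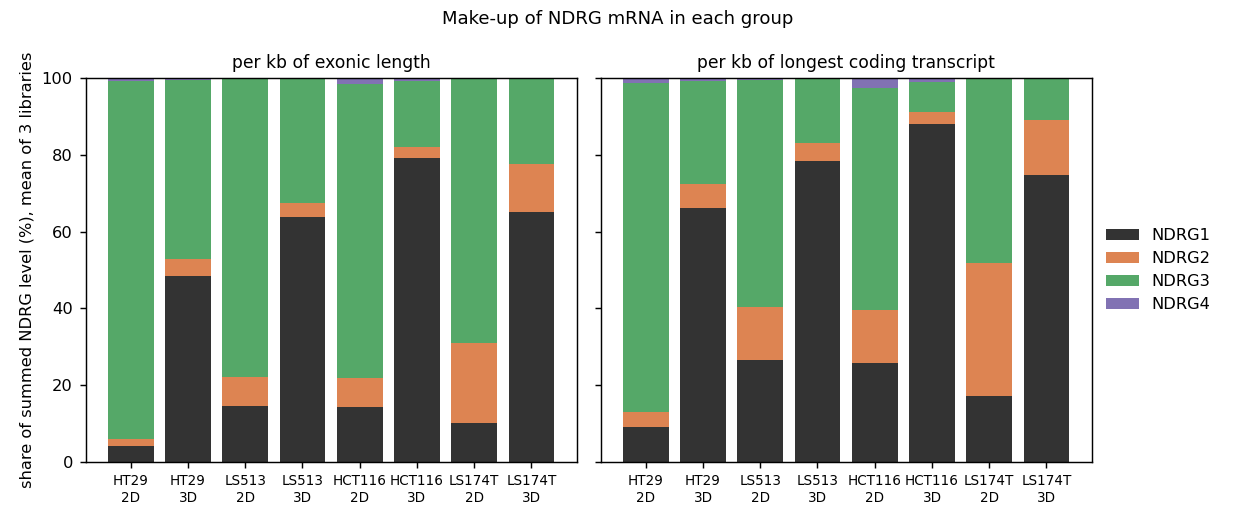
Share of each NDRG gene (vertical axis, percent, mean of 3 libraries) in the summed level of the family in the 8 groups (horizontal axis), with CPM divided by the exonic length (left) or by the length of the longest coding transcript (right). NDRG3 made up 69.0% to 93.5% in 2D on the left and at most 46.7% in 3D, where NDRG1 took 48.4% to 79.4%.

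NDRG1 belongs to the genes known to respond to hypoxia, so a list of 31 other hypoxia response genes was examined beside it. Of these, 29 were tested (not SLC2A3 and LOX). In HT29, LS513, HCT116 and LS174T, 18, 23, 24 and 28 of them were called higher in 3D, against 21.1%, 13.7%, 16.8% and 13.1% of all tested genes. The number called lower was 1 in HT29 (19.6% of all genes) and 0 in the other lines (9.9%, 12.3% and 9.15% of all genes). With a log2 fold change over 1 or under -1 required as well, HT29 had 11 higher (8.58% of all genes) and 0 lower (3.81%). The median log2 fold change of the list was 0.69, 1.16, 1.23 and 1.37 in HT29, LS513, HCT116 and LS174T, and that of all tested genes was between 0.00 and 0.02. In all 4 lines, 15 of the 29 were called higher, against 3.14% of all genes.

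ANGPTL4, a secreted inhibitor of lipoprotein lipase, and ANKRD37, an ankyrin repeat protein, had the largest mean change of the list. ANGPTL4 rose by 5.64 on the log2 scale in LS513 and by 4.89 in HCT116, and in HT29 and LS174T it rose from a 2D mean of 0.0297 and 0.0591 CPM, under the floor, to 1.16 and 2.02 CPM. ANKRD37 rose by 2.95 and 2.45 in HT29 and LS513 and by 4.47 and 3.95 in HCT116 and LS174T. ENO1, the glycolytic enzyme enolase, was the one called lower in HT29 (-0.45, SE 0.11, adjusted p = 0.0026), whereas it rose in the other lines by 0.30 to 0.72. STC2, a secreted glycoprotein, rose in HCT116 (0.92, adjusted p = 1.5e-04) and LS174T (0.99, adjusted p = 1.3e-04). In HT29 and LS513, its mean level was at most 0.0548 CPM, under the floor, so a change could not be measured there. NDRG1 was surpassed in its fold change by 3 list genes in LS513 and by 2 in each of the other lines, and in its 3D level per kb by 9 genes in HT29, 8 in LS513 and LS174T and 6 in HCT116.

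**Figure D4:**
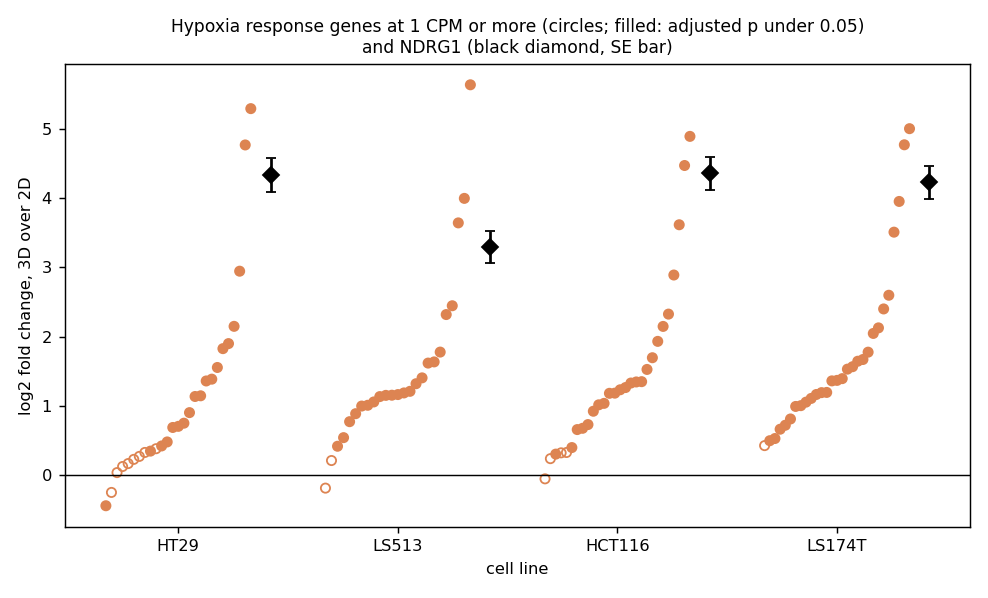
Log2 fold change of 3D over 2D for the hypoxia response genes with at least 1 CPM (circles in rank order, 27, 25, 28 and 29 genes from left to right, filled where the adjusted p is under 0.05) and for NDRG1 (black diamond with the standard error). In each line, NDRG1 lies among the upper few genes, and the circle at the top is ANGPTL4, whose fold in HT29 and LS174T rests on 2D counts under the floor.

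Among 9 oxygen sensing genes, 8 were tested (not HIF3A). HIF1A, the oxygen-regulated subunit of HIF, fell by 0.72 in HT29 (adjusted p = 4.1e-04), by 0.39 in HCT116 (adjusted p = 0.045) and by 0.41 in LS174T (adjusted p = 0.043) and was at -0.30 in LS513 (adjusted p = 0.14). HIF1AN, the hydroxylase that blocks HIF activity, fell by 0.43 in HT29 (adjusted p = 0.0015) and was at -0.22 to -0.16 in the other lines (adjusted p from 0.10 to 0.22). EGLN1, the prolyl hydroxylase that acts on HIF and on NDRG3 protein, rose in LS513 (0.69, adjusted p = 2.9e-04) and LS174T (0.87, adjusted p = 3.7e-05). ARNT2, a partner subunit, was above 1 CPM only in HCT116, where its log2 fold change was -0.06 (adjusted p = 0.88). In all, 1 of the 8 genes was called higher in each line, beside 21.1%, 13.7%, 16.8% and 13.1% of all tested genes in HT29, LS513, HCT116 and LS174T, and 2, 0, 2 and 1 were called lower, beside 19.6%, 9.9%, 12.3% and 9.15%.

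The MYC network of 11 genes comprises the factors that repress NDRG1 and their antagonists. Of its genes, 3, 4, 4 and 5 were called higher in HT29, LS513, HCT116 and LS174T (all genes, 21.1%, 13.7%, 16.8% and 13.1%), and 1, 3, 1 and 2 lower (all genes, 19.6%, 9.9%, 12.3% and 9.15%). MYC itself was called in LS174T only (0.68, SE 0.13, adjusted p = 9.7e-04), where it was higher in 3D, at 347 ± 79.5 against 216 ± 6.06 CPM. In the other lines its log2 fold change was 0.05 to 0.16 (adjusted p from 0.42 to 0.81). MYCN had 0 counts in HT29 and HCT116, and it fell in LS513 by 1.23 (adjusted p = 2.6e-04), from 3.82 to 1.63 CPM, and in LS174T by 0.50 (adjusted p = 0.0499). MXI1 and MXD4, which compete with MYC for MAX, rose in all 4 lines (0.66 to 1.26 and 0.81 to 1.73), and MGA, a large MAX partner, fell in all 4 (-0.77 to -0.52, as 2.46% of all genes did).

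Of 11 genes of the SGK1 and GSK3 route that phosphorylates NDRG1 protein, 2, 3, 1 and 1 were called higher and 2, 1, 1 and 1 lower. Between 13.1% and 21.1% of all genes were called higher and between 9.15% and 19.6% lower in a line, and the counts in HT29, HCT116 and LS174T are no larger than the shares of all genes in these lines. SGK1 rose in LS513 (1.32, SE 0.19, adjusted p = 2.5e-05) from 3.62 to 9.04 CPM, and was not called in HT29 (0.05), HCT116 (-0.01) or LS174T (0.24), although HT29 had about 101 CPM in 2D. SGK2, a related kinase, rose in all 4 lines by 0.46 to 0.55. MTOR, the kinase upstream of SGK1, fell in all 4 lines (-0.72 to -0.41), and its partner RICTOR fell in HT29 (-0.92, adjusted p = 0.0048).

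Among 6 genes that act with NDRG1 in adhesion and vesicle recycling, CD82, a tetraspanin that restrains metastasis, rose in all 4 lines (0.32 to 0.74). RABAC1, an acceptor of prenylated Rab proteins, rose in HT29 (0.95), LS513 (0.52) and HCT116 (1.10), and in LS174T it was at 0.46 (adjusted p = 0.074). CTNNB1, which encodes beta-catenin, fell by 0.24 in both LS513 and LS174T (adjusted p = 0.037 and 0.043), and LRP6, a Wnt coreceptor, fell in HT29 (-0.64, adjusted p = 0.032) and LS174T (-0.70, adjusted p = 0.033). The list had 2, 3, 3 and 2 genes called higher, beside 21.1%, 13.7%, 16.8% and 13.1% of all genes, and 1, 1, 0 and 2 lower, beside 19.6%, 9.9%, 12.3% and 9.15%. Of 7 lactate genes, which bear on NDRG3 protein, LDHA (lactate dehydrogenase A) rose by 0.34 to 1.39 and SLC16A3 (a lactate exporter) by 0.50 to 1.73, in all 4 lines. SLC16A1 fell in HT29 (-0.51) and HCT116 (-0.43), as did SLC16A7 (-1.12 and -0.89), and both encode monocarboxylate transporters. SLC16A7 had a mean of at most 0.0106 CPM in LS513 and LS174T, under the floor, so a fall could not be seen there. In all, 2, 3, 2 and 2 of the lactate genes were called higher and 2, 0, 2 and 0 lower, to be read against the same shares of all genes.

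Genes with the profile most like that of NDRG1 were sought over the 24 libraries, among 14616 genes with a mean of at least 1 CPM, by Pearson's r of log2 CPM. The highest were ALDOC (r = 0.976), JUND (0.961), ANKRD37 (0.957), BNIP3L (0.953) and MIR210HG (0.937). ALDOC, a glycolytic aldolase, went from a 2D mean of 12.1, 23.95, 34.5 and 25.9 CPM in HT29, LS513, HCT116 and LS174T to a 3D mean of 87.1, 234, 256 and 277 CPM. JUND is an AP-1 subunit, BNIP3L is a mitophagy receptor, and MIR210HG is the host transcript of a hypoxia-induced microRNA. After the mean of each line was subtracted, C4orf3 (0.985), C6orf223 (0.983), FAM47E-STBD1 (0.982), ALDOC (0.980) and TMEM53 (0.980) were closest. FAM47E-STBD1 is a readthrough gene that shares exons with its neighbors, so its counts are uncertain. The libraries of a group share cell line and growth condition, and the growth contrast among them is the one that chose NDRG1, so these values are a description.

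**Figure D5:**
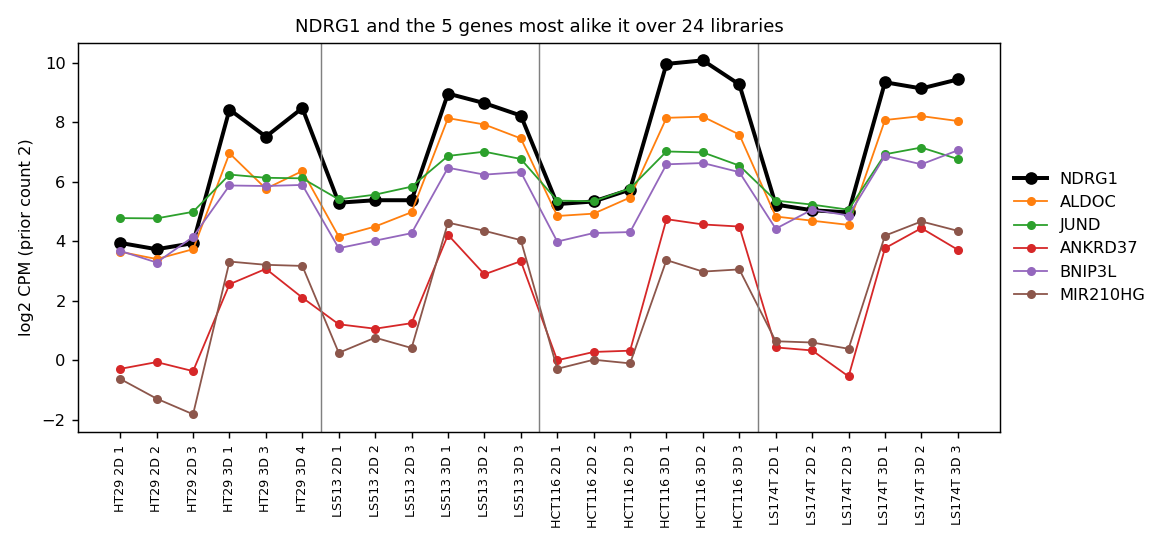
Log2 CPM with a prior count of 2 (vertical axis) of NDRG1 and of the 5 genes with the highest r to it, in the 24 libraries (horizontal axis, 6 per line). The lines join the points of a gene and carry no order. NDRG1 and these genes are all high in the 3D libraries and low in the 2D libraries of each cell line.

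NDRG2 was most like NTPCR (r = 0.946), AKAP7 (0.946), HINT3 (0.940), AC007009.1 (0.940) and TMEM229B (0.939) over all libraries, and within lines like PDZK1IP1 (0.962), GPR160 (0.955), RAP1GAP (0.954), ATOH8 (0.953) and SMIM24 (0.951). PDZK1IP1, a small epithelial membrane protein, had log2 fold changes of 3.19 in HT29, 0.52 in LS513 and 1.43 in LS174T, which is the order of NDRG2 in these lines. In HCT116, its mean level was at most 0.0441 CPM, under the floor, so its fold change there was not compared. NDRG3 was most like MTMR2 (0.961), HOXA2 (0.958), HOXA3 (0.943), HNRNPUL1 (0.942) and DENR (0.932). Within lines it was most like CTDSPL (0.929) and the RNA-binding protein genes HNRNPA3 (0.919), TAF15 (0.914), HNRNPA2B1 (0.911) and KHSRP (0.910). NDRG4, whose profile mainly separates LS174T from the other lines, was most like GNAI2 (0.978), B3GNT7 (0.974), ALDH7A1 (0.973), GAREM2 (0.972) and DHX40 (0.969). Within lines its closest genes reached less, from BAIAP2-DT (0.874) and WDTC1 (0.866) to C2orf68 (0.820), SMIM14 (0.817) and FKBP9 (0.804). Between members, r within lines was 0.74 for NDRG1 and NDRG2, -0.76 for NDRG1 and NDRG3 and 0.44 for NDRG1 and NDRG4. It was -0.57 for NDRG2 and NDRG3, 0.23 for NDRG2 and NDRG4 and -0.36 for NDRG3 and NDRG4. Subtracting the mean of each line leaves the step from 2D to 3D in these values, including the one that chose NDRG1. They are therefore a description and do not show that members vary together within a growth condition.

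The nearest tested genes on each side of a member that do not overlap it were examined, and the tested genes that overlap one. ST3GAL1, a sialyltransferase 152826 bases beyond NDRG1, was called in HT29 alone, where it fell by 0.47 (adjusted p = 0.023), and TG, on the other side, was under 1 CPM in every group and fell in LS513 (-1.47, adjusted p = 0.039). Beside NDRG2, METTL17 fell in HCT116 (-0.46, adjusted p = 0.0015) and ZNF219 was called in none of the lines. ARHGEF40, on the strand opposite to NDRG2, overlaps its span without sharing exonic bases, and it rose in HT29 (1.66, SE 0.16, adjusted p = 6.6e-08), as NDRG2 did, and was between -0.30 and 0.20 in the other lines (adjusted p from 0.20 to 0.59). MIR6717, which shares exonic bases with NDRG2, rose in HT29 (1.70, adjusted p = 0.0015) and LS174T (1.01, adjusted p = 0.0065), and its counts are uncertain, since NDRG2 reads can cover it. No tested gene overlaps NDRG1, NDRG3 or NDRG4. Beside NDRG3, DSN1, 5713 bases away, fell in HCT116 (-0.32, adjusted p = 0.0025), as NDRG3 did, and RAB5IF fell in HT29 (-0.34, adjusted p = 0.010). SETD6, a lysine methyltransferase gene 1851 bases beyond NDRG4, fell in all 4 lines (-0.59 to -0.32), including HCT116, where NDRG4 rose. GINS3, on the other side of NDRG4, fell in LS513 (-0.47, adjusted p = 0.0018) and LS174T (-0.38, adjusted p = 0.010).

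Of the colonocyte differentiation genes, examined because NDRG1 rises as colonic cells differentiate, 17 were tested, and 12, 9, 2 and 9 of them were called higher in HT29, LS513, HCT116 and LS174T, respectively, with 0, 0, 1 and 1 lower and medians of 1.74, 0.77, 0.00 and 0.81. Of all tested genes, 21.1%, 13.7%, 16.8% and 13.1% were called higher in these lines and 19.6%, 9.9%, 12.3% and 9.15% lower, so that the 2 of 17 in HCT116 lay below the share of all genes. Most of the 17 were under 1 CPM in both growth conditions of HCT116, such as VIL1 (0.223 and 0.209 CPM) and CDH17 (0.0107 and 0.0329 CPM). A few were not, such as CDX2 (19.1 and 21.6 CPM). The count and the median of 0.00 in HCT116 therefore say little about a response of this list to growth. FABP1, the fatty acid binding protein of enterocytes, rose in LS513 by 3.59 on the log2 scale and in LS174T by 4.36, to 2051 and 128 CPM, and it had 0 counts in HCT116. CEACAM6, a surface glycoprotein, fell in LS174T by 1.53 and was not called in the other lines. Of 20 p53 targets, which are listed because p53 is described to induce NDRG1, 8, 5, 4 and 4 were called higher and 4, 1, 3 and 1 lower, of which the 4 higher in HCT116 and the 4 lower in HT29 are near the shares of all genes (16.8% and 19.6%). GDF15 rose in all 4 lines by 1.49 to 2.47, and MDM2 fell in HT29 (-0.50), HCT116 (-0.54) and LS174T (-0.49). Of 10 iron genes, 2, 5, 2 and 1 were called higher and 3, 0, 2 and 0 lower, where the 5 in LS513 were above the share of all genes (13.7%) and the 2 higher in HT29 near it (21.1%). SLC11A2, an iron importer, rose in HT29 (1.57) and LS513 (1.81), and IREB2, an iron regulatory protein, fell in HT29 (-0.60) and HCT116 (-0.57).

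The leukocyte marker list moved with growth, from a summed level of 1319 to 1430.3 CPM in 2D to 2419.9 to 2674 CPM in 3D in HT29, and from at most 22.3, 13.2 and 6.01 CPM in 2D to at least 65.3, 36.03 and 8.72 CPM in 3D in LS513, HCT116 and LS174T. Only 2 of its 4 genes were tested, LYZ and CD68, a lysosomal protein, and both were called higher in HT29, LS513 and LS174T and CD68 in HCT116. PTPRC was not among the tested genes and CD3E was at 0 throughout. Other marker lists moved as well. The epithelial sum rose from 9597 to 9965 CPM in 2D to 12330 to 13758 CPM in 3D in LS513. In HCT116, it rose from 3573 to 4612 CPM to 5473 to 6053 CPM, and it overlapped in HT29 and LS174T. The endothelial sum was higher in 3D without overlap in HT29, LS513 and HCT116. The glial and neuronal sum was higher in HT29 and HCT116 and lower in LS174T, all at 6.44 CPM or less. The part of these differences in the values of the NDRG genes was not tested.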

How the data were processed

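The authors deposited raw counts per gene, without normalization, for each technical replicate. Of these, 191 tables of 58243 Ensembl identifiers were used here. Per the study's methods, reads were trimmed, filtered and aligned with STAR, reads that aligned more than once were removed, and overlaps with exons were counted by gene. The submitters' processing notes list bcl2fastq 2.18.0.12, Trim Galore 0.4.1 and HTSeq 0.5.3 and the build hg19, whereas the methods name an Ensembl version of genome and annotation and no build. No coordinate was needed from the tables, and positions and lengths here come from GENCODE 29 on GRCh38, which holds 57980 of the identifiers. The strand option of the counting is not given in the sources used here.

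The 8 technical replicates of a library were summed (7 for replicate 4 of HT29 in 3D, of which 1 was not analysed here). Their counts of NDRG1, NDRG2, NDRG3 and NDRG4 varied like counting error, with a median chi-square per degree of freedom of 1.12, 0.803, 0.943 and 0.858. Cell line, growth condition and replicate number come from the labels. The analysis ran in R 4.3.3. Low genes were removed by filterByExpr of edgeR 4.0.16, and the 24 libraries were scaled by TMM and entered together in a robust quasi-likelihood fit, in which each of the 8 groups had its own mean. The scripts were tested on simulated data. Intervals of fold changes come from the SE of the fit and hold the spread between libraries, whereas the exact Poisson and ratio intervals of NDRG4 cover counting error only, since the reads carry no molecular identifiers.

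The 4 members and the gene lists were chosen with earlier results of these data known. The other genes named are, for each member, the 5 with the highest r over the libraries and the 5 within lines, the nearest tested genes, genes sharing its exons, and of each list the 2 largest and 2 smallest mean changes (1 of each for colonocyte, p53 and iron genes) among genes with at least 1 CPM in a group, with MYC, MYCN, HIF1A and SGK1 always named. CD68, LYZ and the genes at 0 counts were named after their values were seen, as was ARHGEF40, and 1 further leukocyte marker is not reported here. Alternatives were DESeq2 size factors, library totals, a replicate block, no filter beyond 1 count in a library, only the 6 libraries compared, DESeq2 1.42.0, technical replicate d left out, a fold change cutoff of 1 on the log2 scale for the hypoxia list, NDRG4 without LS174T, and each library left out in turn. Library totals and NDRG4 without LS174T were chosen after seeing the data.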

Additional observations from a re-analysis of the deposited data

Results flagged for a closer look

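The growth effect on NDRG2 differed between the 4 lines in a test of the difference itself (adjusted p = 8.68e-06 in the edgeR quasi-likelihood interaction test over all 24 libraries, with 3 per group). The log2 fold change of 3D over 2D was 2.03 in HT29, 0.81 in LS174T, 0.30 in HCT116 and 0.10 in LS513, and all 3 of the 3D libraries were above all 2D libraries in HT29 and LS174T. With each library left out in turn the adjusted p lay between 1.3e-06 and 4.2e-05.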

How the results depend on the processing

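Of the values recomputed with another setting, 302 kept their direction, side of the threshold or size, 1 lost its call, 2 gained a call and 6 moved, of which 4 are counts. With all genes of at least 1 count, NDRG3 in HT29 was -0.24 and was no longer called (adjusted p = 0.17). With library totals in place of TMM, which moved the median of all genes by -0.09 in LS513 and LS174T and less in the other lines, NDRG3 was called in LS513 (-0.27, adjusted p = 0.029) and between LS513 and LS174T in 2D (-0.22, adjusted p = 0.039), and the 2D difference of NDRG1, which has no test, was -1.42 for HT29 minus LS174T and 0.12 for LS513 minus LS174T. The hypoxia genes called lower in HT29 numbered 2 in the fit of its 6 libraries and 0 with the replicate block and with the cutoff on fold change, which left 11 called higher. The causes were not tested.

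Without each library in turn, NDRG3 in HT29 ranged from -0.33 to -0.16 (adjusted p from 0.0066 to 0.14) and NDRG4 in LS513 from 0.34 to 1.00 (adjusted p from 0.021 to 0.54). No other result of the members crossed the threshold. NDRG4 without LS174T kept its side of the threshold in the interaction test. A pairing of libraries by replicate number was not seen. None of 11 pairs of same-numbered 2D and 3D libraries had a correlation of their deviations over 0.1 (-0.15 to 0.09), and 3 of 11 3D libraries correlated best with their own number. With 3 libraries per group, this cannot exclude that same-numbered cultures were handled together. With the replicate block, calls over all genes went from 7887 to 5415 in HT29, from 4571 to 3635 in LS513, from 5637 to 4614 in HCT116 and from 4305 to 3273 in LS174T, and no call of a member changed (NDRG3 in HT29 -0.34, adjusted p = 0.046). The low level of NDRG4 limited its comparison in LS174T, where a change could not be measured at 0 to 3 counts per library.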
